A study of Mus musculus with 16 samples.

Results

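The epigenetic modifier genes described here are *Dnmt1*, *Dnmt3a*, *Dnmt3b*, *Uhrf1*, *Mbd1*, *Ezh2*, *Suz12*, *Smchd1*, *Smarca5* and *Baz1b*, which are 10 genes of DNA methylation, of Polycomb repression and of mouse mutants with altered epigenetic silencing. They were found by gene symbol among the 25697 probes of a liver expression array, where 9 of the 10 genes had a probe and the 9 together had 20 probes. *Smarca5* had none and was not analysed here. A probe counted as detected on an array where its detection p-value was under 0.01, and a gene was tested when this held on 3 or more of the 16 arrays. Of the 10 genes 7 were tested, out of 7302 tested in all and 16593 genes with a symbol on the array.

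DNA methylation in mammals is written by DNMT3A and DNMT3B, which methylate new CpG sites, and is copied after replication by DNMT1, which UHRF1 brings to newly replicated CpG sites. MBD1 belongs to the methyl-CpG binding proteins that read the mark. Polycomb repressive complex 2 methylates lysine 27 of histone H3, with EZH2 as its catalytic subunit and SUZ12 as a core subunit that holds the complex together. SMCHD1 is a structural maintenance of chromosomes protein that is needed to keep genes of the inactive X chromosome and some imprinted clusters silent. SMARCA5 (also called SNF2H) and BAZ1B (also called WSTF) are the motor and a partner subunit of ISWI chromatin remodellers.

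The arrays compared livers of male FVB/NJ mice at 4 weeks of age that were heterozygous for a mutation in *Trim28* (*Trim28MommeD9/+*, 7 arrays) with livers of wild-type littermates (*Trim28+/+*, 9 arrays) of the same strain, sex and age. TRIM28 is a corepressor that KRAB zinc finger proteins bring to DNA, and with it come histone methylation and deacetylation. *MommeD9* is a point mutation at a splice site of *Trim28* that came from a chemical mutagenesis screen in FVB/NJ mice carrying a variegated GFP transgene. It is a germline mutation, carried by every cell of the mouse and not by hepatocytes alone. The screen looked for modifiers of epigenetic silencing, and mutations in *Dnmt1*, *Smchd1*, *Smarca5* and *Baz1b* came from it too, but the labels give no change in any of the 10 genes in these mice. The methods give 4 mice of each genotype with technical replicates, so the n printed below counts arrays and not mice, and neither the labels nor the methods say which arrays share a mouse. Every test used the array as its unit, which makes the p-values too small to the extent that arrays share a mouse.

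Promoter windows show how CpG-rich these genes are at their own starts, and are printed for the genes that varied most between arrays or that shared a motif. RefSeq windows (GRCm38.p6, 250 bases before to 50 bases after an annotated start) were listed for 9 of the 10 genes, 14 windows in all. Their CpG counts ran from 2 to 47 per window of 300 bases, where the median over the 5983 tested genes with a window was 20 (interquartile range 13 to 28). Each of the 9 genes had at least 1 window above that median, with 30 CpG in *Dnmt3b*, 31 in *Ezh2*, 41 in *Suz12*, 40 in *Smchd1*, 27 in *Baz1b* and 32 in *Smarca5*. *Dnmt1* had 2, 12 and 33 in its windows, *Dnmt3a* had 46, 47 and 18, and *Uhrf1* had 12 and 33. E2F factors, which switch on genes of the S phase, bind sites of the forms TTTCGCGC and TTTGGCGC. Both forms of 8 letters were searched on both strands, and no match shared bases with another in the windows printed. They were found in 267 of 32851 windows of the same length (0.813%), among them windows of 3 of the genes, *Ezh2*, *Dnmt1* and *Uhrf1*. A match is a description of the letters and no measure of binding. Each window is written 5′ to 3′ on the strand of its gene, with a match to either form, or to its reverse complement, in capitals.
*Dnmt1* (chr9:20952574-20952873, minus strand): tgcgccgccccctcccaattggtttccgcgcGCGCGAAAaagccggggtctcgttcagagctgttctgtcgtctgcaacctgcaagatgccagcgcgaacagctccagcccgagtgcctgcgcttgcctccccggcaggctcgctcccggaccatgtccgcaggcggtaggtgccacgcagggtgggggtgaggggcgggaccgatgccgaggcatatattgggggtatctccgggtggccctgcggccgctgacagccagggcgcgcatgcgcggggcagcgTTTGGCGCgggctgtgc
*Uhrf1* (chr17:56304063-56304362, plus strand): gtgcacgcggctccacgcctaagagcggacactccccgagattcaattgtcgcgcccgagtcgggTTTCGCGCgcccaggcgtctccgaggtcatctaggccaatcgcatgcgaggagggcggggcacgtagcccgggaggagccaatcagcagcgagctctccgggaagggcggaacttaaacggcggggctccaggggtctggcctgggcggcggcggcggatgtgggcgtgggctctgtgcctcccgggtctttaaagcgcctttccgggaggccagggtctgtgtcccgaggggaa
*Ezh2* (chr6:47594981-47595280, minus strand): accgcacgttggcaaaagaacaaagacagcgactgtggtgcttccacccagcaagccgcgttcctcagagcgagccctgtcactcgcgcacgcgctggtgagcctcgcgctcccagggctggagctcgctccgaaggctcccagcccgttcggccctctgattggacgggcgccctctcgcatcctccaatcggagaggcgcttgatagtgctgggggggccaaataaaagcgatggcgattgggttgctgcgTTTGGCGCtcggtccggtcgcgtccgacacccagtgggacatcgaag
*Dnmt3b* (chr2:153649199-153649498, plus strand): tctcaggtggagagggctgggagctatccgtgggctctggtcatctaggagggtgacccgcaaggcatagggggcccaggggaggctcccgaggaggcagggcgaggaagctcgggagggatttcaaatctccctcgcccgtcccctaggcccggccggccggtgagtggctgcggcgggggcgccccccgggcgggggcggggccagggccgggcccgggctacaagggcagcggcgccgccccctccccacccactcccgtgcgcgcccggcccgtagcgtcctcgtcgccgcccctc
The *Dnmt1* window held a match on its own strand that began at base 34 after the start and another on the opposite strand that lay from 219 bases before the start. In *Uhrf1* the match began 185 bases before the start, and in *Ezh2* it began at base 4 after it. The window of *Dnmt3b* held neither form.

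On these arrays *Trim28* had a log2 intensity of 8.53 to 8.76 in *Trim28MommeD9/+* and of 8.63 to 9.39 in *Trim28+/+*, and replicate 7 of *Trim28+/+* (8.63) was the only wild-type array inside the mutant range (log2 fold change -0.44 ± 0.09 SE, limma adjusted p = 0.00277). Intensity before normalization averaged 205 to 270 on mutant arrays and 273 to 344 on wild-type arrays. The constant taken off each array by the authors split the arrays into a low set of 8, with all 7 mutant arrays and *Trim28+/+* replicate 1, and a high set of 8 with the remaining wild-type arrays. Genotype and this background level can be told apart through *Trim28+/+* replicate 1 alone, so that array is given by its own value below. With the background sets as a block, which sets the mutant mean against that array alone, *Trim28* was 0.77 lower (log2 fold change -0.77). A fit with 1 wild-type array can judge no call, so a call lost in it says little about a gene. Markers of liver cell types were as the label says: 10 hepatocyte markers of 12 were tested, with a summed linear level of 134439 to 142564 in the mutant and 136634 to 151089 in the wild type, and 0 were higher and 4 lower (*Alb*, *Serpina1a*, *Cyp2e1* and *Hnf4a*). Of 10 Kupffer cell markers 7 were tested, 4 were higher (*Clec4f*, *Vsig4*, *C1qa* and *C1qb*) and 0 lower in *Trim28MommeD9/+*, with a summed level of 1669 to 2045 against 1285 to 1672. Among all 7302 genes tested, 10.4% were higher and 11.4% lower in *Trim28MommeD9/+*. None of the 4 cholangiocyte markers with a probe passed the detection filter. Over 13 tested markers of proliferating cells, which matter here because *Dnmt1*, *Uhrf1* and *Ezh2* are known to be higher in dividing cells, 1 was higher (*Tk1*) and 0 were lower, and the summed level was 1669 to 2288 against 1520 to 2072. The part of these marker levels in the values below was not tested, and in a bulk liver sample fewer cells of a type and less RNA per cell cannot be told apart.

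None of the 7 modifier genes tested passed the test between genotypes at an adjusted p under 0.05, while 21.8% of all 7302 genes did (10.4% higher and 11.4% lower in *Trim28MommeD9/+*). Without adjustment, 1 of the 7 (*Dnmt1*) had p under 0.05, as had 2685 of all genes. In 6 of the 7 the fold change was negative and in *Smchd1* it was positive, with a median log2 fold change of -0.11 over the 7 and 0.05 over all genes tested. For each of the 7 genes the arrays of the genotypes overlapped, as they did in all but 2.4% of the genes tested. A p that misses the threshold does not show that the genotypes had the same level, so the interval of each difference is given with it.

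**Figure D1:**
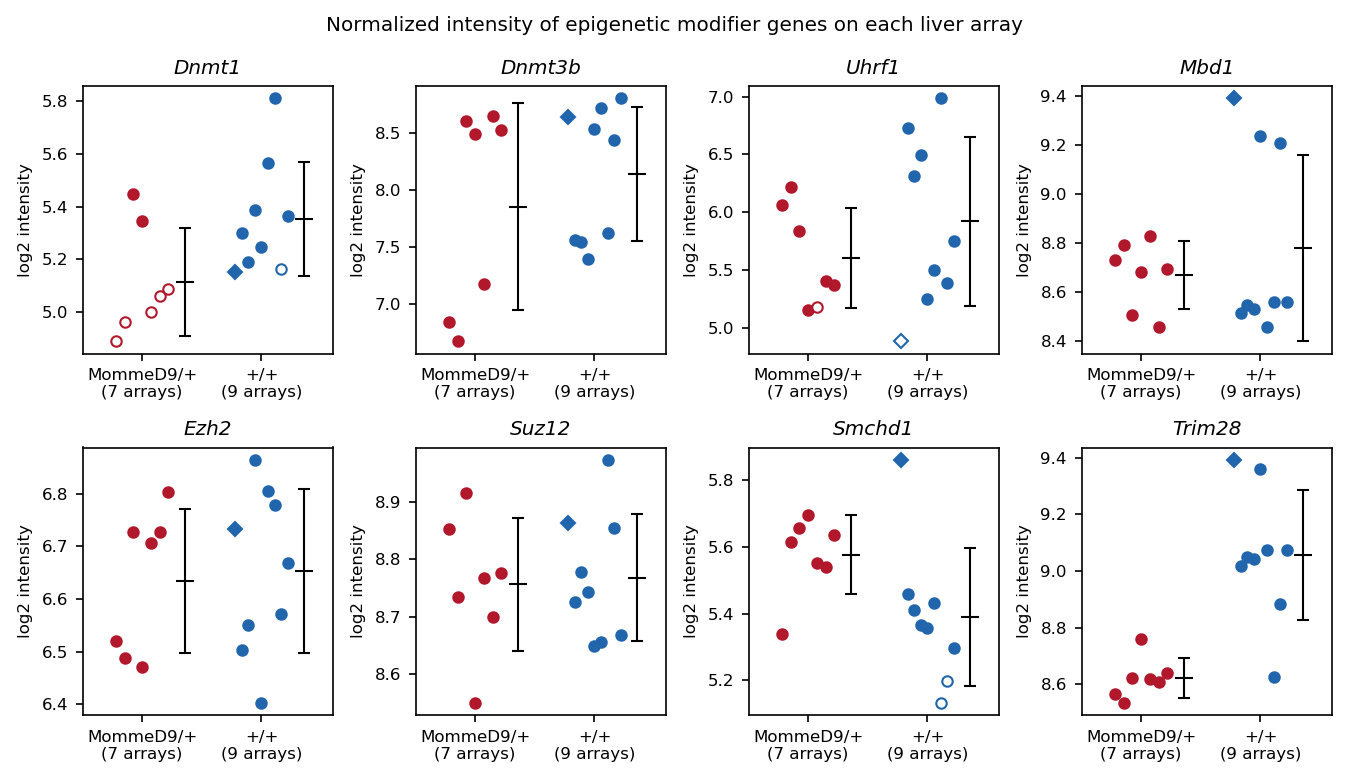
Normalized log2 intensity of the 7 modifier genes tested and of *Trim28* on each array (points, red for 7 *Trim28MommeD9/+* and blue for 9 *Trim28+/+* arrays), with the mean and SD of each genotype (bars). Open symbols are arrays on which the probe was not detected, and the diamond is *Trim28+/+* replicate 1. Scales differ between panels. *Dnmt3b* spans 6.68 to 8.80 and *Suz12* only 8.55 to 8.97, and the genotypes overlap in every panel.

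*Dnmt1*, the maintenance methyltransferase (GRCm38 chr9:20907206-20959888), was read near the detection limit. Its probe was detected on 2 of 7 *Trim28MommeD9/+* arrays and on 8 of 9 *Trim28+/+* arrays. Log2 intensity had a lowest value of 4.89, a median of 5.06 and a highest value of 5.45 in the mutant, and 5.15, 5.30 and 5.81 in the wild type. In the mutant 5 of the 7 arrays lay below every wild-type array, and none of these 5 detected the probe. Replicates 3 (5.45) and 4 (5.35), which detected it, lay inside the wild-type range. Means were 5.11 ± 0.21 (SD, n = 7) and 5.35 ± 0.22 (SD, n = 9), a log2 fold change of -0.24 (95% confidence interval -0.46 to -0.02) with a limma adjusted p of 0.104. *Trim28+/+* replicate 1, in the low background set with the mutant arrays, was the lowest wild-type array (5.15). The mutant mean lay 0.04 below it (log2 fold change -0.04 with the background sets as a block). With arrays scaled to the median of all probes the difference was -0.38 (limma adjusted p = 0.00875) and in the authors' scaled values it was -0.34 (adjusted p = 0.0295), so that *Dnmt1* passed as lower under both, where 34.6% and 14.8% of all genes did. With arrays scaled to the median of the probes detected on all arrays it was smaller (-0.13, limma adjusted p = 0.411). *Dnmt1* passed the detection filter through the wild-type arrays, so its folds and p-values set their signal against mutant readings mostly at background.

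*Dnmt3b*, a de novo methyltransferase (chr2:153649411-153687730), was detected on all 16 arrays by one probe and on 0 arrays by another. It had the largest SD of the 7 genes, and its arrays differed within each genotype. Log2 intensity was 6.68 at the lowest, 8.49 at the median and 8.64 at the highest in *Trim28MommeD9/+*, against 7.40, 8.43 and 8.80 in *Trim28+/+*. The 16 values fell into a lower range up to 7.62 and an upper range from 8.43, with a gap of 0.81 between them. Mutant replicates 1, 2 and 5 (6.85, 6.68 and 7.18) and wild-type replicates 2, 3, 4 and 7 (7.56, 7.54, 7.40 and 7.62) made up the lower 7 arrays. The upper 9 arrays were the other 4 mutant arrays (8.49 to 8.64) and the other 5 wild-type arrays (8.43 to 8.80). All 3 low mutant arrays were below every wild-type array, while the high arrays of both genotypes overlapped. Means were 7.85 ± 0.90 (SD, n = 7) and 8.14 ± 0.59 (SD, n = 9), a log2 fold change of -0.29 (95% confidence interval -0.98 to 0.41, limma adjusted p = 0.560). *Trim28+/+* replicate 1 was in the upper range (8.63), and against it alone the difference was larger (-0.78, limma adjusted p = 0.868). The SD pooled over both genotypes was 0.74, and 99.2% of the genes tested had a smaller one. 

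*Dnmt3a*, the other de novo methyltransferase (chr12:3801559-3914443), had a pair of probes and neither was detected on any array. Their normalized log2 intensity was 4.2 to 4.3 on every array of both genotypes, with detection p-values from 0.638 to 1.0. These are background readings, so no fold change was computed and nothing follows from them on the level of *Dnmt3a* RNA.

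*Uhrf1* (chr17:56303337-56323486), whose protein guides DNMT1 to hemimethylated DNA, was detected on 6 of 7 mutant and 8 of 9 wild-type arrays by one of its probes, and on 0 arrays by another. Log2 intensity ran from 5.16 over a median of 5.41 to 6.22 in *Trim28MommeD9/+*, and from 4.88 over 5.75 to 6.99 in *Trim28+/+*, so that the mutant arrays lay inside the wild-type range. Wild-type replicates 2, 3, 4 and 7 (6.73, 6.31, 6.50 and 6.99) and mutant replicates 1 and 2 (6.06 and 6.22) were the highest. The means of 5.61 ± 0.43 (SD, n = 7) and 5.92 ± 0.73 (SD, n = 9) gave a log2 fold change of -0.32 (95% confidence interval -0.90 to 0.27, limma adjusted p = 0.433). Its pooled SD of 0.62 was larger than that of 98.6% of the genes tested. *Trim28+/+* replicate 1 was the lowest of all arrays (4.88), and against that array alone the mutant mean was 0.72 higher, not lower (limma adjusted p = 0.825).

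*Mbd1*, a reader of methylated CpG, had 5 probes, the most of the 10 genes, and 2 of them were detected on 3 or more arrays. That with the higher mean was detected on all 16 arrays. It read 8.45, 8.69 and 8.83 (lowest, median and highest) in *Trim28MommeD9/+* and 8.45, 8.56 and 9.39 in *Trim28+/+*. Wild-type replicates 1, 5 and 8 (9.39, 9.24 and 9.20) stood 0.38 above the next array, while the 6 other wild-type arrays read 8.45 to 8.56, within the mutant range. The wild type was thus higher by the mean (8.78 ± 0.38, SD, n = 9, against 8.67 ± 0.14, SD, n = 7) and lower by the median. The log2 fold change was -0.11 (95% confidence interval -0.40 to 0.18, limma adjusted p = 0.602). Against *Trim28+/+* replicate 1 alone, the highest array, it was larger (-0.72, limma adjusted p = 0.541). The second *Mbd1* probe was detected on 0 of 7 mutant arrays and on 6 of 9 wild-type arrays, with a median of 4.77 (4.45 to 5.11) against 5.23 (4.91 to 5.80). When every probe was tested as a feature of its own, this probe passed as lower in *Trim28MommeD9/+* (log2 fold change -0.53 ± 0.13 SE, limma adjusted p = 0.00834), as did 12.2% of the 10291 probes. It passed the detection filter through the wild-type arrays alone, so its fold sets mutant background readings against a partly detected signal. *Trim28+/+* replicate 1 read 4.98 by this probe, inside the mutant range. Since the wild-type arrays did not all detect it either, no bound on the fold follows. The call thus differed between the probes, a difference that was not itself tested, and the remaining 3 were detected on 0 arrays.

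*Ezh2* and *Suz12*, both of Polycomb repressive complex 2, were detected on every array and had the narrowest ranges. *Ezh2*, the methyltransferase of the complex (chr6:47530274-47595270), read 6.47, 6.71 and 6.80 (lowest, median and highest) in *Trim28MommeD9/+* and 6.40, 6.67 and 6.86 in *Trim28+/+*. Its log2 fold change was -0.02 (95% confidence interval -0.18 to 0.14, limma adjusted p = 0.884), and its other 2 probes were detected on 0 arrays. *Suz12* (chr11:79993106-80034123) read 8.55, 8.77 and 8.91 against 8.65, 8.74 and 8.97, a log2 fold change of -0.01 (95% confidence interval -0.14 to 0.12, limma adjusted p = 0.911). *Trim28+/+* replicate 1 read 6.73 for *Ezh2* and 8.86 for *Suz12*, and the differences against it alone were -0.10 and -0.11 (limma adjusted p = 0.954 and 0.919). In both genes the wild-type and mutant ranges nearly coincided, and the intervals of the difference reached from -0.18 to 0.14 on the log2 scale at most. The pooled SD of *Suz12* was 0.11, and only 13.9% of genes had a smaller one. Both fold changes are from quantile normalization. With the median of the probes detected on all arrays *Ezh2* was at -0.025 and *Suz12* at -0.021. In the authors' scaled values they were at -0.11 and -0.05, and neither gene passed under these scalings. With arrays scaled to the median of all probes, under which all genes had a median log2 fold change of -0.19, *Ezh2* was at -0.28 (limma adjusted p = 0.0195) and *Suz12* at -0.28 (adjusted p = 0.0303), and both passed as lower.

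*Smchd1* (chr17:71344489-71475366) was the only one of the 7 genes with a positive fold change. One of its 3 probes was detected, on 7 of 7 mutant and 7 of 9 wild-type arrays. It read 5.34, 5.61 and 5.70 (lowest, median and highest) in *Trim28MommeD9/+* and 5.13, 5.37 and 5.86 in *Trim28+/+*. All mutant arrays but replicate 1 (5.34) lay above all wild-type arrays but replicate 1, and that array (5.86) was the highest of all 16. Means were 5.58 ± 0.12 (SD, n = 7) and 5.39 ± 0.21 (SD, n = 9), a log2 fold change of 0.19 (95% confidence interval -0.00 to 0.37, limma adjusted p = 0.141). Without *Trim28+/+* replicate 1 it was 0.25 (limma adjusted p = 0.0173) and *Smchd1* passed as higher, as did 13.4% of all genes. Against that array alone the sign turned (-0.29, limma adjusted p = 0.691). Its call thus changed with 1 array, the only wild-type array in the low background set. *Baz1b* (chr5:135187323-135246131) had 1 probe, which read 4.30 to 4.59 in the mutant and 4.31 to 4.61 in the wild type and was detected on 0 of 16 arrays (detection p-values 0.102 to 0.680).

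In each of the 7 genes the arrays of 1 genotype spanned a wider range than the difference between the genotype means. The same held for *Trim28*, which passed the test (8.63 to 9.39 in the wild type, log2 fold change -0.44), and the share over all genes was not counted. Of the 7 genes *Dnmt3b*, *Uhrf1* and *Mbd1* had the largest pooled SDs (0.74, 0.62 and 0.30). Arrays were joined within a genotype by the best matching of their values over all genes into 7 presumptive technical pairs, since arrays of 1 mouse are not identified. In the wild type this paired replicates 2 and 3, 4 and 7, 5 and 8, and 6 and 9, and left replicate 1 single. That makes more units than the 4 wild-type mice, so the matching cannot be the full grouping of arrays by mouse. Centred correlations within pairs ran from 0.47 (wild-type replicates 4 and 7) to 0.86. The largest difference in *Dnmt3b* within such a pair was 0.22 on the log2 scale, against a range of more than 1 within each genotype, and both arrays of each pair lay on the same side of its gap in 7 of 7 pairs. At the largest gap of each other gene the count was 7 of 7 for *Uhrf1*, *Mbd1* and *Smchd1*, and 6 of 7 for *Dnmt1*, *Ezh2* and *Suz12*. For *Mbd1* the largest difference within a pair was 0.10 and for *Uhrf1* it was 0.49. The matching used these genes among all others, so this is a description of the arrays and no test. A difference in spread between genotypes was tested over all genes with limma on the absolute deviation of each array from the mean of its genotype. It passed for 0 of the 7 genes and for 0.548% of all genes. The deviation of *Mbd1* was 0.24 smaller in *Trim28MommeD9/+* (log2 difference -0.24 ± 0.07 SE, limma adjusted p = 0.0773), that of *Dnmt3b* was 0.31 larger (± 0.17 SE, adjusted p = 0.324) and that of *Uhrf1* was 0.27 smaller (log2 difference -0.27 ± 0.15 SE, adjusted p = 0.326).

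**Figure D2:**
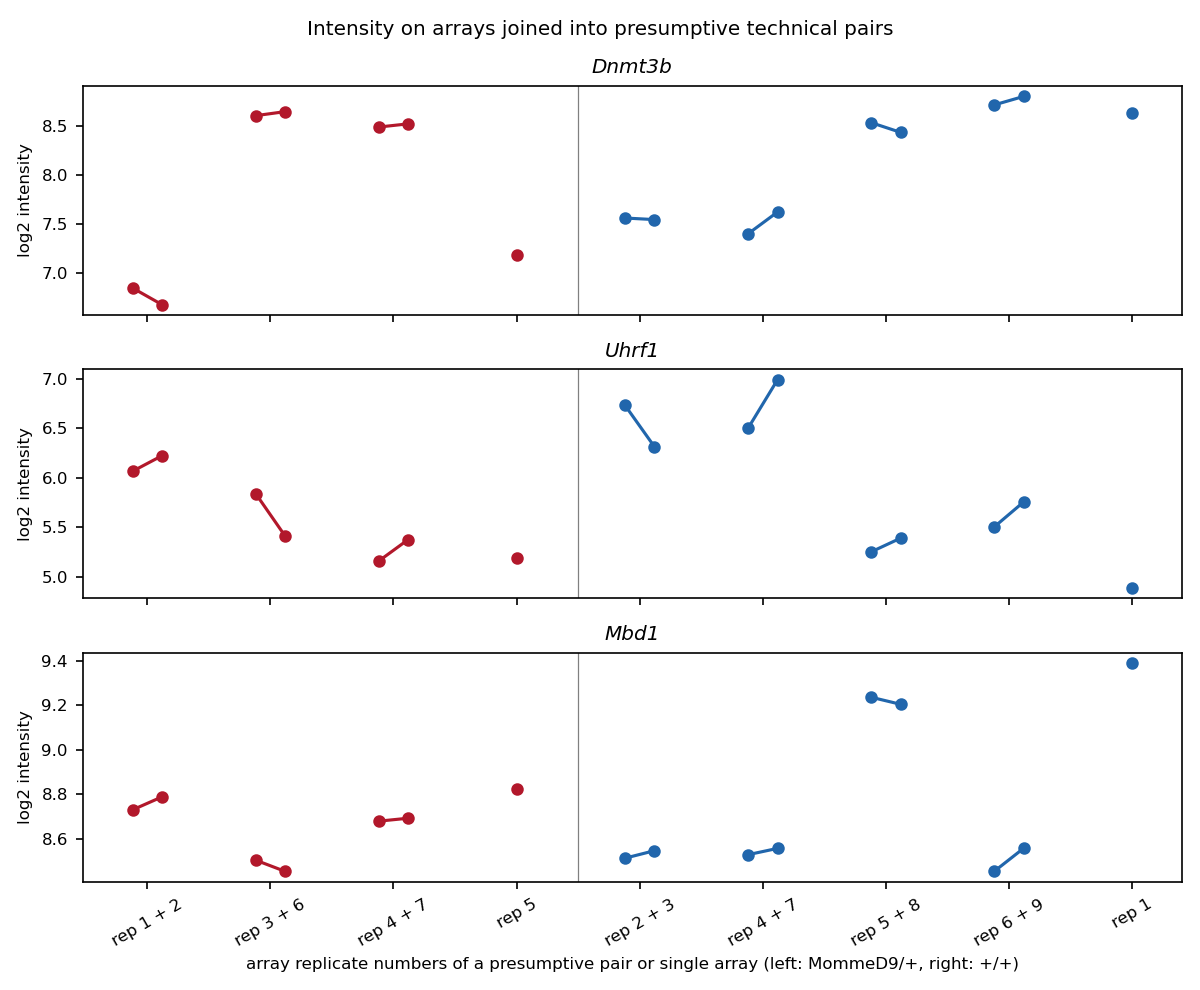
Normalized log2 intensity of *Dnmt3b*, *Uhrf1* and *Mbd1*, with arrays of a presumptive technical pair joined by a line and unpaired arrays as single points (red *Trim28MommeD9/+*, blue *Trim28+/+*). Pairs of *Dnmt3b* lie at or below 7.62 or at or above 8.43 in both genotypes, *Uhrf1* differs by up to 0.49 within a pair, and 3 wild-type arrays of *Mbd1* lie above 9.2.

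Other genes of the same pathways were counted by list, for lists of DNA methylation, methyl-CpG readers, Polycomb complexes and their opponents, ISWI remodellers, structural maintenance of chromosomes proteins, and histone H3 lysine 9 and deacetylase modifiers. Counts for each list below include the members, while the totals do not. In 8 lists that hold 102 genes besides the 10, 48 genes were tested, 2 were higher and 6 were lower in *Trim28MommeD9/+* (8 of 48, 16.7%, near the 21.8% of all genes). The 8 became 4 with presumptive technical pairs, under which 6.67% of all genes were called. For DNA methylation enzymes and partners, 10 genes were tested, and 0 were higher and 0 lower, at a median log2 fold change of -0.03. For methyl-CpG readers 4 genes were tested, with 0 higher and 0 lower and a median of 0.03. ISWI remodellers (3 tested, median 0.12) and the enzymes that oppose Polycomb, which remove ubiquitin from histone H2A or methyl groups from lysine 27 of histone H3 (5 tested, median -0.04), also had 0 called. The median over all genes was 0.05.

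Polycomb repressive complex 2 had 6 genes tested, with 0 higher and 2 lower, *Eed* and *Mtf2* (median log2 fold change -0.02). *Eed*, the core subunit that binds trimethylated lysine 27 of histone H3, read 4.83, 4.92 and 4.97 (lowest, median and highest) on the mutant arrays, none of which detected it, and 5.29, 5.74 and 6.47 on the wild-type arrays, all of which did. The genotypes did not overlap. The fitted log2 fold change was -0.89 ± 0.14 SE (limma adjusted p = 0.000992). *Eed* passed the detection filter through the wild-type arrays alone, so this fit sets wild-type signal against mutant background readings. With the mutant arrays at their lowest detected intensities (5.14 to 5.26), the wild-type mean (5.80) was at least 1.53-fold higher. That bound is on the mean and does not hold for each wild-type array. *Trim28+/+* replicate 1 was the wild-type array nearest to the mutant (5.29, the others 5.55 to 6.47), and against it alone the difference was -0.38 (limma adjusted p = 0.784). *Eed* fell under quantile normalization where its partners *Ezh2* and *Suz12* had intervals around 0, but the difference between these genes was not tested. *Mtf2*, an accessory subunit, was detected on 1 of 7 mutant and 7 of 9 wild-type arrays (log2 fold change -0.28 ± 0.09 SE, limma adjusted p = 0.0330), and this call was lost without any 1 of 6 arrays, mutant replicates 1, 2, 5 and 7 and wild-type replicates 7 and 9 (adjusted p = 0.0532 to 0.0698). It was lost too with the median of the probes detected on all arrays (-0.14, limma adjusted p = 0.235), with array weights (-0.23, adjusted p = 0.0647) and with no detection filter (adjusted p = 0.0757). *Mtf2* passed the detection filter through the wild-type arrays, so its fold and p set their signal against mutant readings mostly at background. *Trim28+/+* replicate 1 was the lowest wild-type array (5.12), and the difference against it alone was -0.17 (limma adjusted p = 0.906).

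Polycomb repressive complex 1 had 14 genes tested, with 2 higher and 1 lower (median 0.03). *Cbx2*, a chromobox subunit of the canonical complex, was detected on 6 of 7 mutant arrays and 1 of 9 wild-type arrays. It read 5.38 ± 0.16 (SD, n = 7) in the mutant and 4.89 ± 0.20 (SD, n = 9) in the wild type, a log2 fold change of 0.48 ± 0.09 SE (limma adjusted p = 0.00244), and it was 0.64 above *Trim28+/+* replicate 1. *Cbx2* passed the detection filter through the mutant arrays, so its fold and p set their signal against wild-type readings mostly at background. *Pcgf1*, a subunit of a variant complex, read 7.93 ± 0.10 (SD, n = 7) in the mutant and 7.49 ± 0.22 (SD, n = 9) in the wild type, a log2 fold change of 0.44 ± 0.09 SE (limma adjusted p = 0.00252), and was 0.43 above replicate 1. With arrays scaled to the median of all probes it was 0.18 higher and did not pass (limma adjusted p = 0.175). *L3mbtl2*, a subunit of another variant complex, was detected on 3 of 7 mutant and 9 of 9 wild-type arrays. Its fold thus sets wild-type signal against mutant readings partly at background. It was lower (log2 fold change -0.33 ± 0.09 SE, limma adjusted p = 0.0152). This call was lost with the median of the probes detected on all arrays (-0.25, limma adjusted p = 0.0642) and with array weights (-0.23, adjusted p = 0.0571), and the difference from replicate 1 (5.47) alone was -0.23 (adjusted p = 0.854). *Pcgf1* and *L3mbtl2* are also among genes that the study picked from these samples, so their presence here is not independent evidence.

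Of 7 genes tested for structural maintenance of chromosomes proteins and partners, 2 were lower and 0 higher (median 0.08). *Stag1*, a cohesin subunit, had a log2 fold change of -0.49 ± 0.11 SE (limma adjusted p = 0.00404), and *Smc5*, which acts with SMC6 in DNA repair, had -0.36 ± 0.11 SE (adjusted p = 0.0308). *Hdac2*, a histone deacetylase, was the only gene called of 6 tested among modifiers of lysine 9 of histone H3 and deacetylases (log2 fold change -0.43 ± 0.10 SE, limma adjusted p = 0.00771). For these 3 genes *Trim28+/+* replicate 1 lay at the level of the mutant arrays and below the other wild-type arrays. *Stag1* read 5.54 on that array against a mutant mean of 5.55, *Smc5* 5.79 against 5.77, and *Hdac2* 7.84 against 7.74, while the other wild-type arrays read 5.81 to 6.38, 5.86 to 6.63 and 7.87 to 8.53. With presumptive technical pairs as a block the calls of *Mtf2*, *L3mbtl2*, *Smc5* and *Hdac2* were lost (limma adjusted p = 0.133, 0.0793, 0.177 and 0.0804). The background sets as a block leave 1 wild-type array to compare with, so no call could be judged there. The call of *Smc5* was also lost without mutant replicate 5 or 7 or wild-type replicate 5 or 8 (adjusted p = 0.0502 to 0.0657), and with no detection filter (0.0670).

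**Figure D3:**
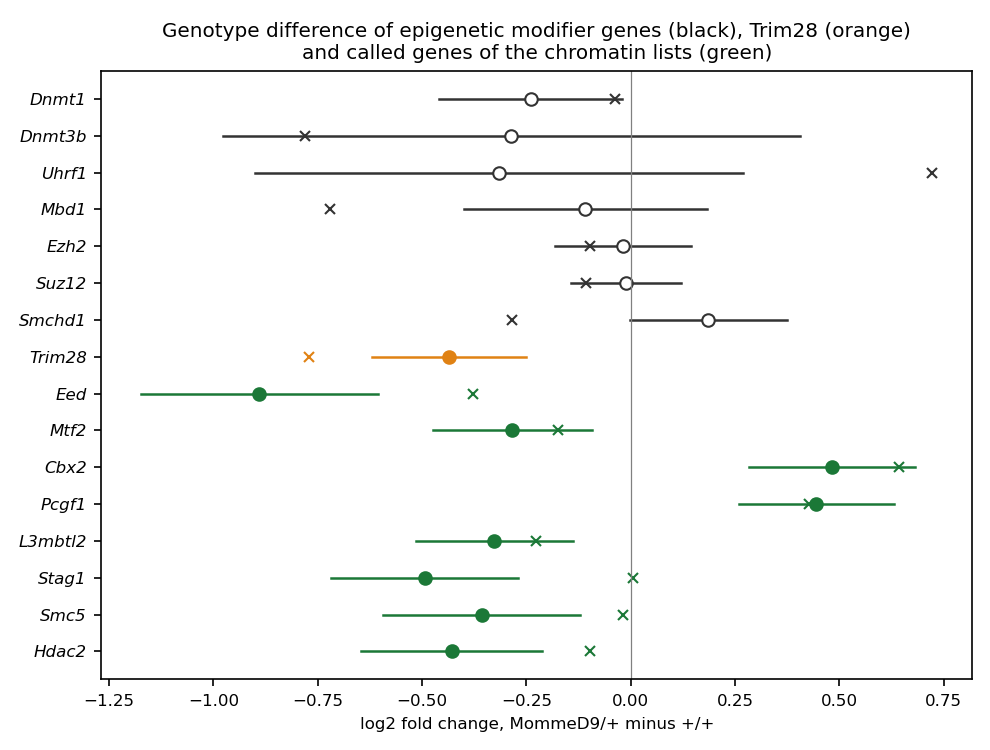
Log2 fold change (*Trim28MommeD9/+* minus *Trim28+/+*) with its 95% confidence interval for the modifier genes tested (black), *Trim28* (orange) and the 8 called genes of the pathway lists (green). Filled symbols passed an adjusted p under 0.05, and crosses give the mutant mean minus *Trim28+/+* replicate 1. No modifier gene is filled, and the crosses of *Stag1* (0.01) and *Smc5* (-0.02) lie at 0.

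Which of the 7 modifier genes passed depended on the scaling of the arrays. Quantile normalization called 0, the median of probes detected on all arrays called 0 (23% of all genes), and the median of all 25697 probes called 3 (*Dnmt1*, *Ezh2* and *Suz12*, all lower). Under that last scaling *Smchd1* was at -0.02 (limma adjusted p = 0.904), where 34.6% of all genes were called lower and 0.479% higher. Weighting arrays by their quality called *Smchd1* as higher (0.20, limma adjusted p = 0.0466, as 12.8% of all genes were). None of the 7 was called with presumptive technical pairs (6.67% of all genes), with the replicate number as a block (7.41%) or with the background sets as a block (0.0411%). No setting called *Dnmt3b* or *Uhrf1* in either direction, and *Mbd1* was called only by its dimmer probe.

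**Figure D4:**
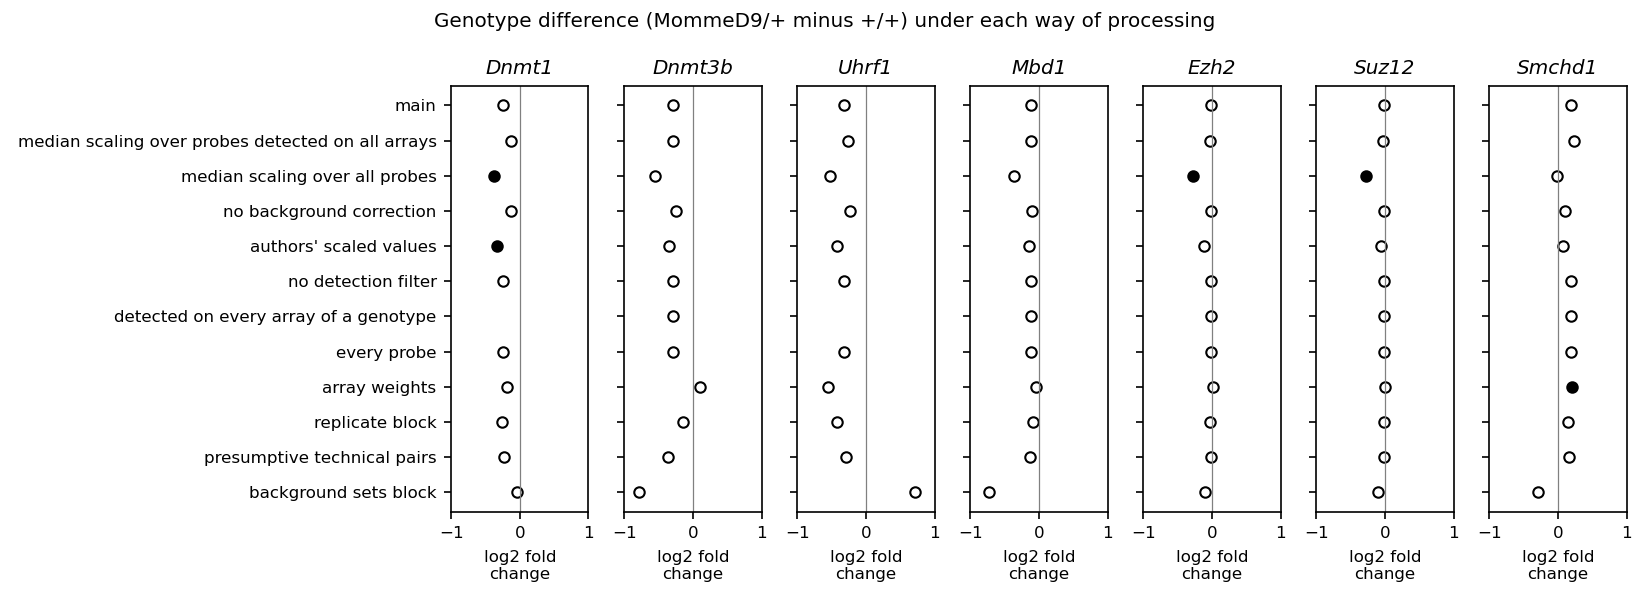
Log2 fold change (*Trim28MommeD9/+* minus *Trim28+/+*) of the 7 modifier genes under each way of processing the arrays (rows). Filled symbols passed an adjusted p under 0.05, and an empty place means that the gene did not pass the filter of that row. *Dnmt1*, *Ezh2* and *Suz12* are filled under median scaling over all probes, *Dnmt1* under the authors' scaled values and *Smchd1* under array weights.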

How the data were processed

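Liver RNA of *Trim28MommeD9/+* (7 arrays) and *Trim28+/+* (9 arrays) mice was read on Illumina MouseRef-8 v2.0 BeadChips and grouped by the labels. The authors deposited intensity values per probe, neither background-subtracted nor normalized, with a detection p-value for each. A further deposited table holds the authors' scaled intensity values. They used BeadStudio and GenomeStudio, and no source used here gives the versions. Symbols were assigned to 23978 of 25697 probes, 23962 of them through Entrez identifiers.

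Background correction, quantile normalization and log2 transformation used neqc (offset 16) of limma 3.58.1 in R 4.3.3. Probes with detection p under 0.01 on at least 3 arrays were kept (10291), with the probe of the highest mean for each gene. For the comparison of genotypes, limma's moderated test with an intensity trend was fitted over 7302 genes, with Benjamini-Hochberg adjustment (threshold 0.05), and the script was tested on simulated data. The fold of *Eed* at a detection bound took, per mutant array, the lowest intensity of a detected probe. Precision is limited by the number of arrays. Counts and motif searches used Python 3.11.15 with pandas 2.3.3.

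Named genes were the 10 members with every probe, *Trim28*, and up to 4 called genes of each pathway list with the smallest p. The members and lists were chosen with earlier results of these data known. Replicate numbers were not treated as pairs, since arrays of the same number had correlations of centred values from -0.394 to 0.479. Alternatives were other scalings, filters, weights, blocks and leaving out each array.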

Additional observations from a re-analysis of the deposited data

Results flagged for a closer look

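In *Trim28+/+*, replicate 1 read 5.86 for *Smchd1*, far above the next highest wild-type array (5.46). The gap was 0.553 of the whole range of the 9 arrays. This was the only group set apart in this way among the 16 examined (8 detected probes in each genotype), where chance marks about 1 in 20. The same array had the lowest *Uhrf1* and the highest *Mbd1* value of all 16 arrays (4.88 and 9.39), and was the only wild-type array in the low background set.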

How the results depend on the processing

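The count of 0 modifier genes called moved to 3 with arrays scaled to the median of all probes, to 1 in the authors' scaled values, to 1 with every probe tested and to 1 with array weights. It ranged from 0 to 1 when arrays were left out in turn, with *Smchd1* called without *Trim28+/+* replicate 1. No modifier gene was called with the background sets as a block, with presumptive technical pairs or with the replicate block. Signs turned for *Dnmt3b* (0.10) and *Ezh2* (0.022) with array weights, for *Smchd1* (-0.017) with the median of all probes, and for *Uhrf1* (0.72), *Smchd1* (-0.29) and *Stag1* (0.0051) with the background sets as a block, and the cause was not tested. With arrays left out, *Ezh2* ranged from -0.050 to 0.0085 and *Suz12* from -0.038 to 0.023. Of the 48 other chromatin genes tested, the 8 called became 17 with the median of all probes. Of these 1 was higher and 16 were lower, where 0.479% and 34.6% of all genes were. With presumptive pairs the 8 became 4 (6.67% of all genes). There were 5 at an adjusted p under 0.01, and the count ranged from 6 to 11 with arrays left out. With the replicate number as a block 3 of the other chromatin genes were called (7.41% of all genes). Same-numbered arrays are not known to be related, and 2 of 7 numbers correlated best with their own. The spread of the 7 genes between arrays was called in 0 under each setting run, including each array left out (0 to 0). *Dnmt1* and *Uhrf1* have no value where detection on every array of a genotype was required. Signals of *Dnmt1*, *Uhrf1* and *Smchd1* near background limit their folds.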

Other observations

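The arrays that stood apart for *Dnmt3b*, *Uhrf1* and *Mbd1* were partly shared. The 6 arrays with the highest *Uhrf1* values (mutant replicates 1 and 2 and wild-type replicates 2, 3, 4 and 7, from 6.06 to 6.99, the next array at 5.84) were all among the 7 arrays in the lower range of *Dnmt3b* (6.68 to 7.62). The remaining array of that range, mutant replicate 5, had *Uhrf1* at 5.18. The 3 wild-type arrays with the highest *Mbd1* values (replicates 1, 5 and 8) were all in the upper range of *Dnmt3b*. There were fewer mice than arrays, the ranges were drawn after the values were seen, and no test was made.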
